A study of Homo sapiens with 96 samples.

Results

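Nonsense-mediated mRNA decay (NMD) factors were followed in A375 cells, an established human melanoma line driven by mutated BRAF. The genes were taken by symbol, and 9 of 9 were found among 44659 entries of the count table: UPF1, UPF2, UPF3A, UPF3B, SMG1, SMG5, SMG6, SMG8 and SMG9. All 9 passed the filter on low counts, as did 14948 entries in all. Pretreatment lasted 18 h, either with the solvent DMSO or with 2 drugs named MAPKi below, the BRAF inhibitor vemurafenib and the MEK inhibitor cobimetinib (500 nM each). To these cultures was then added vehicle, cycloheximide at 100 µg/ml (CHX, which stops translating ribosomes), triptolide at 25 µM (T, which stops transcription) or both (TCHX), and cytoplasmic RNA was collected at 0, 1, 3 or 5 h. This gave 32 groups of 3 libraries, 96 in all, made with QuantSeq, an assay that reads the poly(A) end of a transcript, so that a count does not grow with transcript length. All groups come from the same established line, and no label says that replicates came from separate cultures, so p-values measure the spread between these libraries, which may be technical.

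NMD removes mRNAs on which a ribosome stops in an unusual setting, such as ahead of an exon junction or before a long 3′ UTR, and it needs translation to find them. The helicase UPF1 is its centre. UPF2 and the paralogs UPF3A and UPF3B join UPF1 to the exon junction complex, the kinase SMG1 phosphorylates UPF1 under the hold of its partners SMG8 and SMG9, and SMG5 and the endonuclease SMG6 bind phosphorylated UPF1 and start decay. The mRNAs of several of these factors are themselves known targets of NMD, which forms a feedback loop, and UPF1, UPF2, UPF3B, SMG1, SMG5 and SMG6 are the members usually counted among them.

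The genes lie apart from each other in GRCh38, UPF1 at chr19:18831959-18868230 (plus strand), UPF2 at chr10:11920022-12043170 (minus), UPF3A at chr13:114281601-114305817 (plus) and UPF3B at chrX:119834022-119852998 (minus). SMG1 lies at chr16:18804860-18926408 (minus), SMG5 at chr1:156249224-156282825 (minus), SMG6 at chr17:2059839-2303785 (minus), SMG8 at chr17:59209400-59215239 (plus) and SMG9 at chr19:43727983-43754962 (minus).

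The annotation of GRCh38 used here (GENCODE v44) was read for features that are known to attract NMD, with the MANE Select transcript of each gene. None of the 9 had an exon junction over 50 bases after the stop codon, which 0.294% of 19061 such transcripts had. An ATG in the 5′ UTR was found once each in UPF2, SMG1, SMG5 and SMG9 and in 41.9% of all transcripts. The 3′ UTR was 4709 bases long in SMG1, 3613 in SMG9, 1713 in UPF1, 1649 in SMG6, 1363 in SMG5, 1276 in UPF2, 900 in UPF3A, 856 in UPF3B and 228 in SMG8, against a median of 1059. SMG8 and SMG9, which lost most RNA in the experiments below, stood on opposite sides of that median. A link between this length and the loss was not tested. The letters ATTTA, the core of AU-rich decay elements, were searched on the transcript strand of the 3′ UTR. They occurred once in SMG8, UPF3B and SMG6, in 2 places in SMG9 and UPF3A, in 3 places in UPF1 and UPF2, in 13 places in SMG1 and nowhere in SMG5, and 67.3% of all transcripts held them. A site each of SMG8 and SMG9 is shown because these mRNAs fell furthest after triptolide, with ATTTA in capitals and 5′ to 3′ on the transcript. They lie in the last exon at chr17:59215162-59215191 on the plus strand for SMG8, and at chr19:43729844-43729873 on the minus strand for SMG9 (GRCh38).

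SMG8, 3′ UTR site: tatattgttgatATTTAttgtaaacgtgac
SMG9, 3′ UTR site: cattattccaacATTTAagatcatcctcga

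UPF3A, whose level varied least over the 32 groups, also held ATTTA in its 3′ UTR, at chr13:114305427-114305456 on the plus strand (cctggtaggaatATTTAtcagagttcacac). It was also the only member with TGTA followed by any base and ATA, the letters read by Pumilio proteins, which 25.6% of transcripts held. That site lies at chr13:114305665-114305694, with the letters in capitals: gatactttattTGTAAATAacttaaaatag.

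Promoters of 300 bases around the transcription start, from RefSeq (GRCh38.p14), were at hand for 8 of the 9 genes, and where RefSeq gives several starts the one nearest the annotated 5′ end of the gene was read. The letters CCGGAAG, bound by ETS factors that act downstream of ERK, were searched on both strands and occurred in 1 of the 8, UPF3A, and in 10.3% of 35116 promoters. CCAAT was found in UPF1, UPF2, UPF3B and SMG5 and in 34.6% of promoters, the E-box CACGTG in UPF2 and in 7.26%, and the cyclic AMP element TGACGTCA in 0 of the 8 and in 1.85%. The promoter of SMG5 is shown because SMG5 was lower after MAPKi, with CCAAT in capitals. It lies at chr1:156282776-156283075 on the minus strand.

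SMG5 promoter: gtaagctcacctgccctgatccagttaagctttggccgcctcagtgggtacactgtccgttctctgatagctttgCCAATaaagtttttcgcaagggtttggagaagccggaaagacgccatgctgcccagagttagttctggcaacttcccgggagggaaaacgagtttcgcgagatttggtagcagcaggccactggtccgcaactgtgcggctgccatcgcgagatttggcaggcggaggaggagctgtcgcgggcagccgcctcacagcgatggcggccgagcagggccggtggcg

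Libraries held between 2381351 and 12520154 counts, the median being 7143396. DUSP6, an ERK feedback gene, checked the MAPKi labels, since in the vehicle arm at 0 h it stood at 357 ± 52.9 CPM with DMSO and at 1.08 ± 0.657 CPM under MAPKi (SD, n = 3). CPM is the count scaled to the library total after TMM normalization. Of 8 melanoma markers, SOX10, MITF and S100B were at 53.0 CPM or more in every library, while the pigment cell antigens MLANA and TYR stayed at or below 3.05 and 1.18 CPM. The summed level of the 8 ran from 745 to 1103 CPM in DMSO and from 2257 to 4028 CPM in MAPKi. In this sum DCT had the widest range, from 28.4 to 3176 CPM over all libraries, while PMEL stayed at or below 25 CPM. The part of these markers in the MAPKi differences below was not tested. Of 10 markers of other cell types, 4 had no count at all and the summed level never exceeded 6.65 CPM. In bulk RNA of this kind, fewer cells and less RNA per cell cannot be told apart.

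Levels were followed first in CPM. The TMM scaling in it set the median log2 change of all genes after T at 3 and 5 h to -0.01 in DMSO and 0.04 in MAPKi. CPM levels with T are thus relative to the median gene, and a general loss of RNA does not show in them. UPF1 was lowest in MAPKi with T at 3 h (56.9 ± 4.17 CPM) and highest in DMSO with CHX at 3 h (136 ± 3.99). UPF2 ran from 30.6 ± 5.44 CPM in MAPKi with T at 5 h to 103 ± 5.49 in DMSO with CHX at 5 h. UPF3A was the flattest member, from 40.4 ± 1.16 to 54.3 ± 3.40 CPM over the 32 groups, a ratio of 1.34 (MAPKi with TCHX at 0 h and DMSO with CHX at 3 h). UPF3B ran from 71.1 ± 3.16 CPM in DMSO with T at 5 h to 148 ± 8.56 in DMSO with CHX at 5 h. SMG1, the kinase, ran from 61.0 ± 9.43 to 127 ± 16.5 CPM between MAPKi with T and DMSO with CHX, both at 5 h. SMG5 ran from 18.4 ± 1.42 CPM in MAPKi with CHX at 0 h to 35.6 ± 3.92 in DMSO with T at 3 h. SMG6 ran from 15.4 ± 4.88 CPM in DMSO with T at 5 h to 31.4 ± 2.05 in MAPKi with TCHX at 3 h.

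The partners of SMG1 had the widest ranges. SMG8 ran from 2.43 ± 2.07 CPM in MAPKi with T at 5 h to 59.8 ± 4.02 in DMSO with CHX at 3 h, a ratio of 24.6. SMG9 ran from 6.85 ± 1.15 CPM in DMSO with T at 5 h to 43.5 ± 3.74 in DMSO with CHX at 5 h, a ratio of 6.35. At the low end of SMG8, MAPKi with T at 3 h (8.14 ± 2.82 CPM) and DMSO with T at 5 h (10.96 ± 3.24) overlapped. At the low end of SMG9, MAPKi with T at 5 h (11.7 ± 1.89), MAPKi with T at 3 h (13.2 ± 3.84) and DMSO with T at 3 h (13.3 ± 1.52) did not differ beyond their spread. Copies of SMG1 on the same chromosome could share its reads. The 6 listed pseudogenes held 1542 counts over all libraries against 58507 for SMG1, or 2.64%. How reads that fit several places were counted is not given in the sources used here. This share therefore does not show how many reads were shared. SMG6 overlaps several genes on both strands, among them HIC1 and SRR on the other strand, SMG8 overlaps an unnamed gene on its own strand and SMG1 one on the other. Whether counting used the strand is not given in the sources used here, so reads of these partners cannot be told apart from those of the members.

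**Figure D1:**
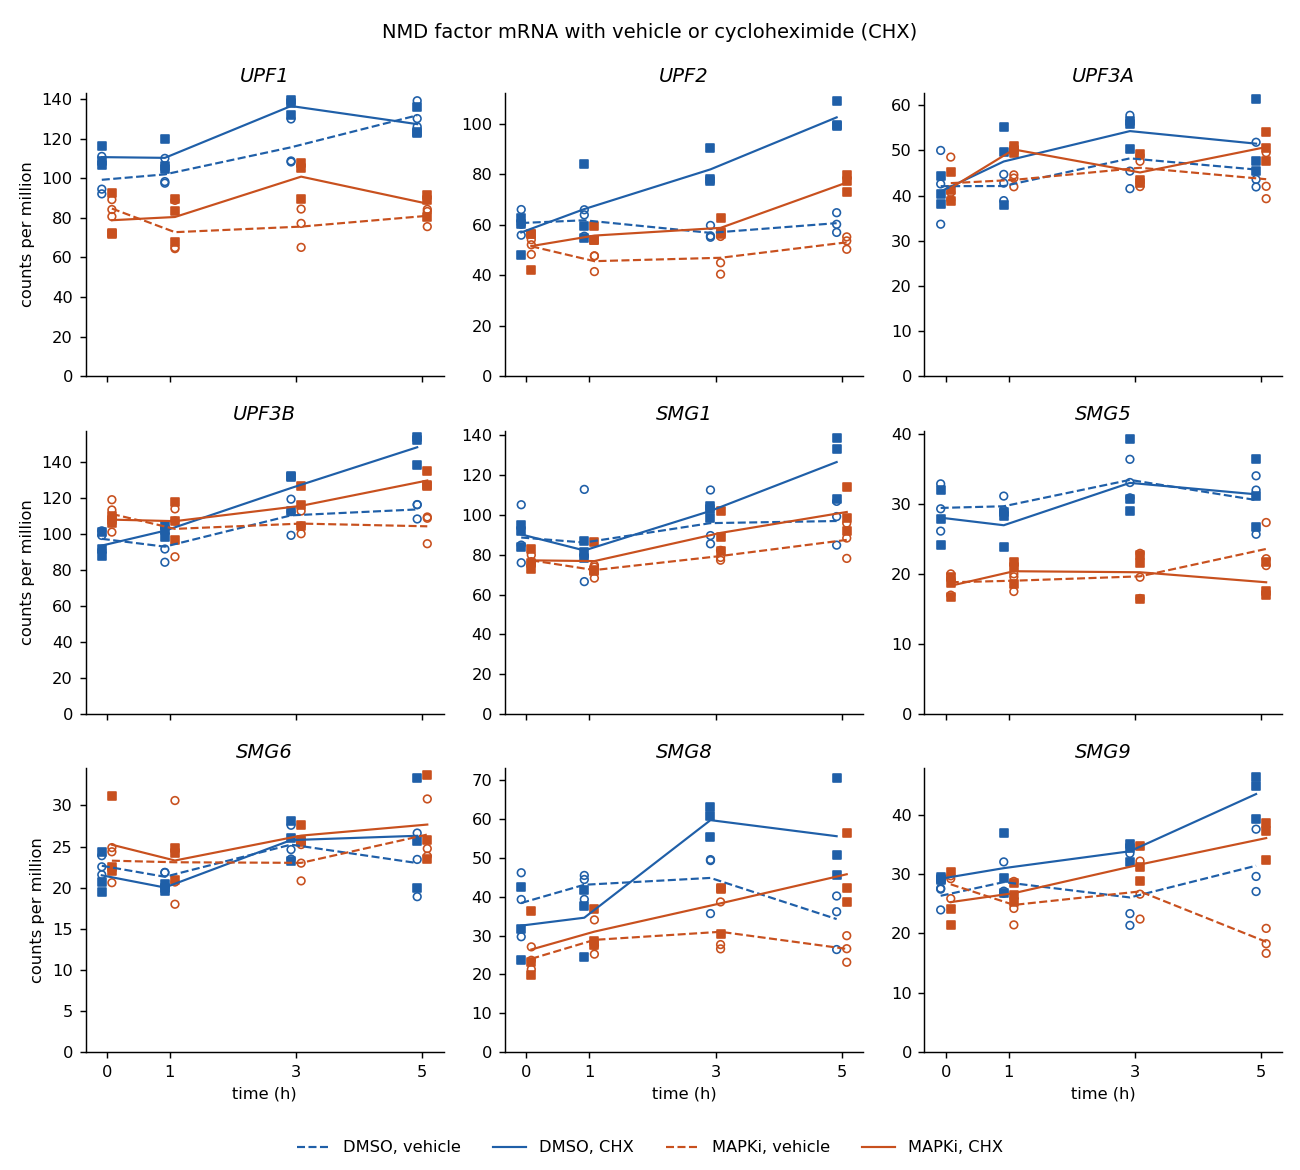
Levels of the 9 mRNAs in CPM (y axis, from 0) against time in hours (x axis) for DMSO (blue) and MAPKi (orange) cells with vehicle (open circles, dashed line) or CHX (filled squares, solid line), with 1 point per library and lines through the means of 3. UPF2 with CHX at 5 h is above its vehicle libraries in both pretreatments (102.6 against 60.7 CPM in DMSO, 76.7 against 53.1 in MAPKi), while the SMG5 lines of the 2 pretreatments stay apart at every time.

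The first comparison asked how MAPKi alone changed the factors, in the vehicle arm at 0 h. SMG5 stood at 26.2, 29.4 and 32.9 CPM in the DMSO libraries and at 19.5, 17.0 and 20.1 CPM in the MAPKi libraries. Each MAPKi library was thus below each DMSO library. The fitted log2 change was -0.65 ± 0.16 (SE, adjusted p = 0.000519, edgeR quasi-likelihood test, Benjamini-Hochberg). SMG8 stood at 29.7, 39.3 and 46.2 CPM in DMSO and at 23.6, 21.3 and 27.1 CPM in MAPKi, again without overlap. Its change was -0.68 ± 0.25 (adjusted p = 0.0204, edgeR), and it was lost without replicate 2 (adjusted p = 0.108) and without replicate 3 (0.0846).

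These were the 2 of 9 members called, both lower, where 45.9% of all tested genes were called either way and 23.6% were lower. The median change was -0.19 over the members and 0.04 over all genes. For UPF2, with a log2 difference of -0.24 ± 0.12, the groups did not overlap (55.9 to 66.0 against 48.3 to 54.1 CPM), and the adjusted p was 0.0992. UPF1 differed by -0.22 ± 0.12, SMG1 by -0.19 ± 0.13, UPF3B by 0.19 ± 0.10, SMG9 by 0.10 ± 0.17, SMG6 by 0.04 ± 0.18 and UPF3A by 0.01 ± 0.14, none of them called. When the 4 vehicle times were averaged, 6 of 9 members were called, all lower, where 69.1% of all genes were called and 32.9% were lower. UPF1 was then at -0.51 (adjusted p = 1.92e-12), UPF2 at -0.29 (2.08e-05), SMG1 at -0.22 (0.00238) and SMG9 at -0.20 (0.0331), beside SMG5 at -0.61 and SMG8 at -0.54. For SMG9 this is the opposite sign from 0 h, and its MAPKi vehicle level was 28.2 ± 2.09 CPM at 0 h and 18.6 ± 2.12 CPM at 5 h. UPF1 moved the other way in DMSO, from 99.2 ± 10.3 CPM at 0 h to 132 ± 6.70 CPM at 5 h, while in MAPKi it stood at 84.7 ± 4.30 and 81.0 ± 4.75.

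The second comparison asked which factor mRNAs accumulate when translation, and with it NMD, is stopped. At 0 h, 5 min after CHX was added, 0 of 9 members and 0 of all tested genes (0%) were called, 0 members reached an unadjusted p under 0.05, as 2.94% of genes did, and DESeq2 called no member. After 1 h, 0 of 9 members were called in DMSO and in MAPKi, where 0.0803% of tested genes were called in each. At an unadjusted p under 0.05 there was 1 member, UPF2 in MAPKi, with a log2 difference of 0.29 ± 0.12 and an adjusted p of 0.466 (edgeR), where 9.43% of all genes passed in MAPKi, and DESeq2 called none.

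After 3 and 5 h, UPF2 rose furthest in DMSO cells. Its level was 55.6, 55.1 and 59.8 CPM with vehicle and 77.4, 78.0 and 90.5 CPM with CHX at 3 h. At 5 h it was 64.8, 57.0 and 60.2 CPM with vehicle and 99.4, 99.3 and 108.9 CPM with CHX. Every CHX library was above every vehicle library, and the log2 change over both times was 0.64 ± 0.09 (adjusted p = 1.95e-09). SMG8, SMG9, UPF3B and SMG1 rose too, by 0.56 ± 0.17, 0.43 ± 0.12, 0.29 ± 0.07 and 0.24 ± 0.09. In all, 5 of 9 members rose and 0 fell, where 32.2% of all genes were called either way and 17.3% rose. UPF3A (0.17 ± 0.10), SMG6 (0.10 ± 0.12), UPF1 (0.10 ± 0.08) and SMG5 (0.01 ± 0.11) were not called.

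In MAPKi cells UPF2 was at 55.2, 53.6 and 50.3 CPM with vehicle and at 77.5, 73.0 and 79.7 CPM with CHX at 5 h, also without overlap. At 3 h the ranges were 40.4 to 55.4 CPM and 56.3 to 62.9 CPM, and the log2 change over both times was 0.43 ± 0.09 (adjusted p = 2.98e-05). SMG9 rose by 0.59 ± 0.12, SMG8 by 0.54 ± 0.17, UPF1 by 0.26 ± 0.08 and UPF3B by 0.22 ± 0.07. Again 5 of 9 members rose and 0 fell, against 29.9% of genes called either way and 15.9% that rose. At 5 h SMG9 stood at 16.6, 18.2 and 20.8 CPM with vehicle and at 37.2, 32.4 and 38.5 CPM with CHX. At 3 h the ranges touched (22.4 to 32.2 against 28.8 to 34.8 CPM). The vehicle level of SMG9 was 28.2 ± 2.09 CPM at 0 h, so the gap at 5 h holds a fall with vehicle as well as a rise with CHX.

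Of the 6 members usually listed as NMD targets, a list drawn up with results of these data known, 3 rose in each pretreatment, and of the 3 others, 2 did, SMG8 and SMG9. SMG5, an often cited feedback target, was at 25.7 to 34.1 CPM with vehicle and 26.7 to 36.5 CPM with CHX at 5 h in DMSO cells. Its change in MAPKi was -0.13 ± 0.11. The difference of the CHX effect between pretreatments was called for 0 of 9 members, none of which had an unadjusted p under 0.05 or a call by DESeq2, where 11% of all genes were called. For UPF2 it was -0.21 (95% interval -0.45 to 0.03), for SMG8 -0.02 (-0.50 to 0.47) and for SMG9 0.16 (-0.17 to 0.50), so that differences up to these bounds were not resolved. Calls depended on the replicates kept. Without replicate 3, 2 members (UPF2 and SMG8) were called in DMSO, with SMG9 at 0.38, UPF3B at 0.22 and SMG1 at 0.22, while calls over all genes went from 4813 to 3429. In MAPKi 3 members were called whichever replicate was left out, and UPF1 was at 0.15 without replicate 3.

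The third comparison followed loss of the mRNAs after triptolide. From here on values were scaled to 36 genes whose share of the library rose at least 1.1-fold by 3 and 5 h of triptolide in every replicate, which made the median log2 change of all genes -0.47 in DMSO and -0.59 in MAPKi, whereas TMM scaling set it to -0.01 and 0.04. Levels are given as percent of vehicle at 0 h in the library of the same replicate number. At 5 h the median gene kept 67.0% ± 1.49 with DMSO and 60.4% ± 2.35 under MAPKi (SD, n = 3).

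SMG9 and SMG8 lost most. In DMSO at 5 h, SMG9 was at 18.3%, 22.3% and 13.5%, and SMG8 at 26.4%, 13.3% and 20.1%. Every one of these values was under the lowest value of the other 7 members, 30.8% for SMG6 in 1 library. At 1 h SMG9 was still at 98.4% ± 17.7 and SMG8 at 87.6% ± 22.7, and at 3 h they were at 38.9% ± 3.60 and 48.2% ± 12.5. The log2 changes over 3 and 5 h were -1.93 ± 0.16 (adjusted p = 6.6e-18) and -1.72 ± 0.21 (adjusted p = 3.19e-11).

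The other factors were longer-lived. At 5 h in DMSO, SMG6 kept 46.1% ± 13.3, UPF3B 50.1% ± 4.13, UPF2 51.9% ± 3.36, SMG1 52.7% ± 5.83 and UPF1 60.5% ± 5.32, and the ranges of neighbours in this order overlapped. SMG5 kept 75.3% ± 3.40 and UPF3A 81.1% ± 13.3, and these were the 2 members not called (log2 difference -0.27 ± 0.13, adjusted p = 0.0910, and -0.22 ± 0.12, adjusted p = 0.123). The 7 others fell, where 50% of all genes were called and 48.7% fell.

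In MAPKi cells all 9 members fell, where 57.4% of genes were called and 56.1% fell. SMG8 was at 27.3%, 31.3% and 13.5% at 3 h and at 4.48%, 13.5% and 1.62% at 5 h. The last value rests on 3 counts and the first on 11. The log2 change was -2.96 ± 0.24 (adjusted p = 1.28e-18). SMG9 was at 28.7%, 20.0% and 26.7% at 5 h, with a change of -1.82 ± 0.16, and UPF2 at 35.8%, 39.0% and 31.6%, with a change of -1.26 ± 0.12. UPF1 (-1.05 ± 0.11) and UPF3B (-1.001 ± 0.10) followed, then SMG1 (-0.90 ± 0.13) and SMG6 (-0.83 ± 0.16). UPF3A (-0.49 ± 0.12) and SMG5 (-0.36 ± 0.14) fell less than the median gene, and under TMM scaling both turned to 0.14 and 0.26 and lost the call. With TMM 6 members were called, all lower, where 21.2% of genes fell and 18.6% rose, and in DMSO 6 were, where 21% fell and 11.8% rose. SMG5 lost its call in 6 of 11 alternatives, among them total counts (-0.01) and without replicate 1 (-0.22).

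The loss differed between pretreatments for SMG8 alone among the members, by -1.24 ± 0.33 on the log2 scale (adjusted p = 0.0156), where 3.17% of genes were called and 2.76% were lower in MAPKi. At 3 h the 3 DMSO values of SMG8 (34.4% to 58.5%) lay above the 3 MAPKi values (13.5% to 31.3%). At 5 h they overlapped, with 13.3% to 26.4% against 1.62% to 13.5%. The call was lost without replicate 1 (-1.03, adjusted p = 0.39), without replicate 3 (-0.96, 0.155), under TMM scaling (-1.07, 0.0827) and with only the libraries compared (-1.26, 0.0914). Without replicate 2 the difference was -1.89 (adjusted p = 0.0178). For UPF1 the difference was -0.42 ± 0.16 (adjusted p = 0.164), and for SMG9 it was 0.11 with a 95% interval of -0.34 to 0.56.

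**Figure D2:**
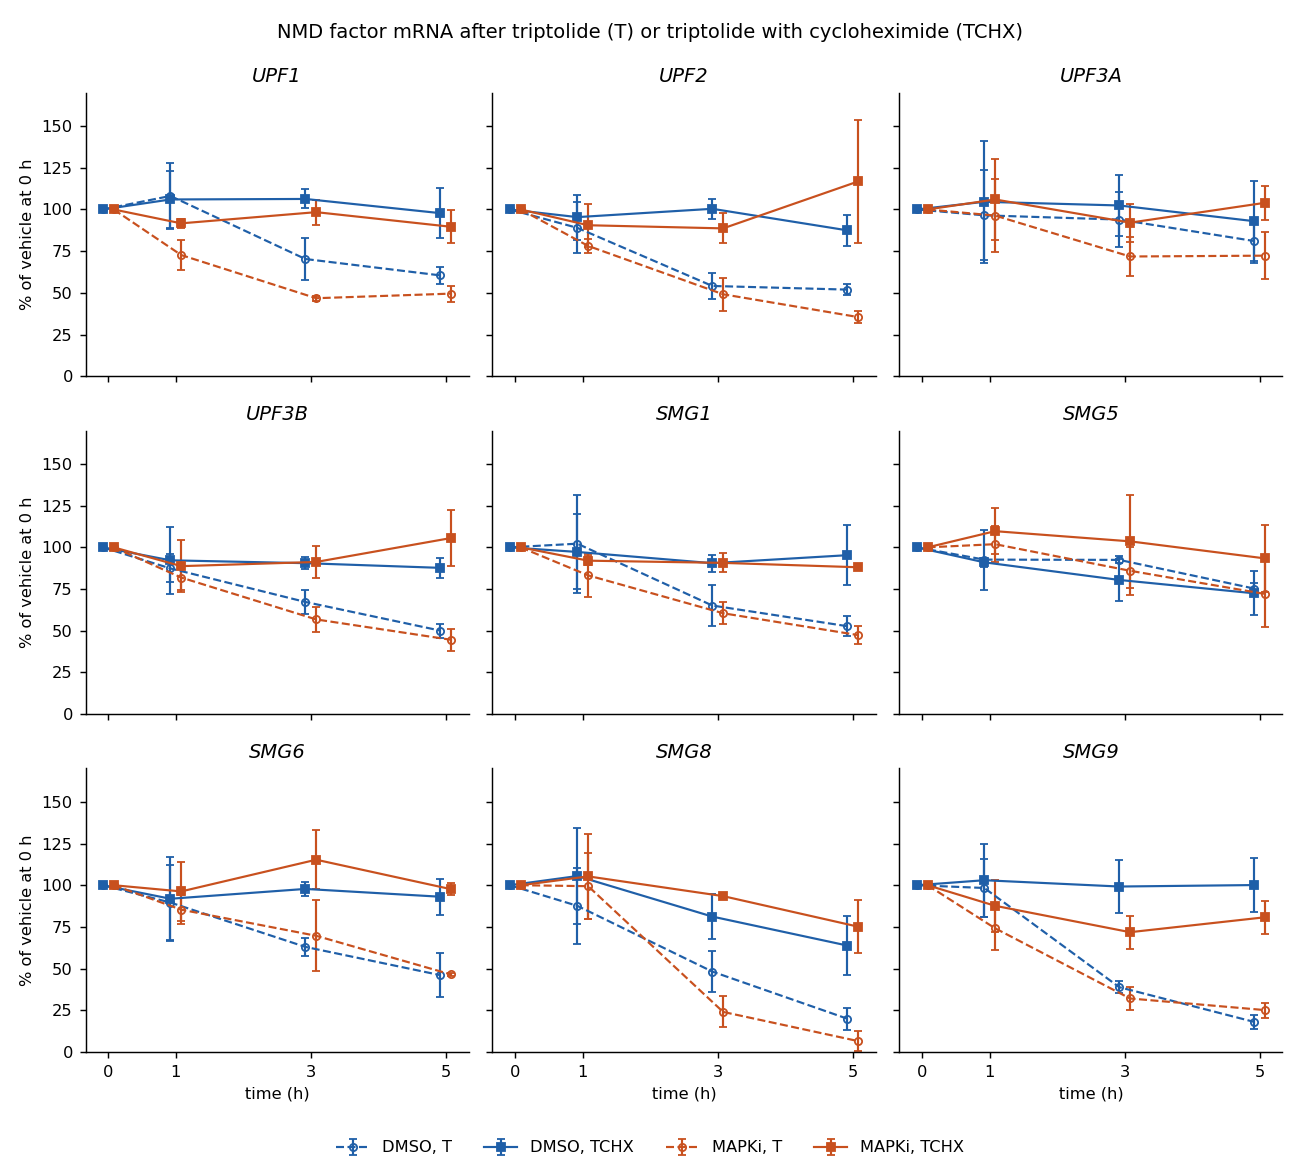
Percent of the vehicle level at 0 h (y axis, stable-gene scaling) against time in hours (x axis) for the 9 mRNAs after T (open circles, dashed) or TCHX (filled squares, solid) in DMSO (blue) and MAPKi (orange) cells, as mean and SD of 3 replicates. SMG8 and SMG9 fall to 18.0% to 25.1% with T at 5 h, and SMG8 in MAPKi to 6.54%, while with TCHX no mean of any member is under 63.8%.

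The fourth comparison asked how much of this loss needed translation, by setting TCHX against T. SMG9 in DMSO at 5 h was at 84.0%, 99.5% and 117% with TCHX, against the 18.3%, 22.3% and 13.5% with T given above. The groups were far apart, and the log2 change over 3 and 5 h was 1.91 ± 0.14 (adjusted p = 1.24e-20). SMG8 was at 83.3%, 59.1% and 49.1% with TCHX at 5 h, and its change was 1.23 ± 0.18 (adjusted p = 2.2e-08). UPF2 (0.82 ± 0.10), SMG6 (0.81 ± 0.14), SMG1 (0.66 ± 0.10), UPF1 (0.65 ± 0.09) and UPF3B (0.61 ± 0.08) were higher too. With UPF3A (0.15 ± 0.10) and SMG5 (-0.12 ± 0.11) not called, 7 of 9 members were higher, where 28.9% of genes were called, 28.4% were higher, and the median gene changed by 0.23. UPF1 and SMG6 were called here but not for CHX against vehicle in DMSO, and these 2 effects were not tested against each other.

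In MAPKi all 9 members were higher with TCHX than with T, where 42% of genes were called, 41.4% were higher and the median gene changed by 0.34. SMG8 was at 56.8%, 82.9% and 85.7% with TCHX at 5 h and at 93.2%, 95.1% and 92.1% at 3 h, all far above the T values. Its log2 change was 2.69 ± 0.21 (adjusted p = 5.5e-19). SMG9 was at 80.3%, 71.3% and 90.8% at 5 h and changed by 1.42 ± 0.14, and UPF2 was at 94.2%, 96.7% and 160% and changed by 1.26 ± 0.10. UPF3B (0.97 ± 0.08), UPF1 (0.96 ± 0.09), SMG6 (0.91 ± 0.14) and SMG1 (0.74 ± 0.11) came next. UPF3A (0.45 ± 0.10) and SMG5 (0.33 ± 0.11) were nearest to the median gene, and both lost the call under TMM scaling, where SMG5 was at -0.03. SMG5 also lost it without replicate 1 (adjusted p = 0.539) and without replicate 2 (0.18). Under TMM scaling SMG5 was lower with TCHX than with T in DMSO, by -0.33 (adjusted p = 0.0223). With TMM 7 members were higher in MAPKi, where 19.5% of genes were higher and 13.5% lower, and 7 were higher and 1 lower in DMSO, where 15.8% and 5.58% of genes were.

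Tested directly, the difference between TCHX and T was larger in MAPKi than in DMSO for 2 of 9 members, where 7.11% of genes were called and 6.82% were higher. SMG8 differed by 1.46 ± 0.28 (adjusted p = 0.000138), and the difference kept its call under each of the 10 alternatives, at adjusted p from 1.51e-09 to 0.019. UPF2 differed by 0.45 ± 0.14 (adjusted p = 0.0376) and lost the call under 8 of 10 alternatives, with an adjusted p of 0.311 without replicate 3, whose MAPKi library with TCHX at 5 h held the 160% given above. UPF3B (0.35 ± 0.12, adjusted p = 0.0555), SMG5 (0.44 ± 0.16, 0.0749) and UPF1 (0.31 ± 0.13, 0.157) were not called by edgeR, while DESeq2 called UPF3B (adjusted p = 0.0401). SMG9 had the other sign, at -0.49 ± 0.19 (adjusted p = 0.118), and was called under TMM scaling (-0.65, adjusted p = 0.0287) and under scaling to total counts (-0.57, 0.0459). The median over all genes was 0.13 here, -0.02 with TMM and 0.05 with total counts.

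**Figure D3:**
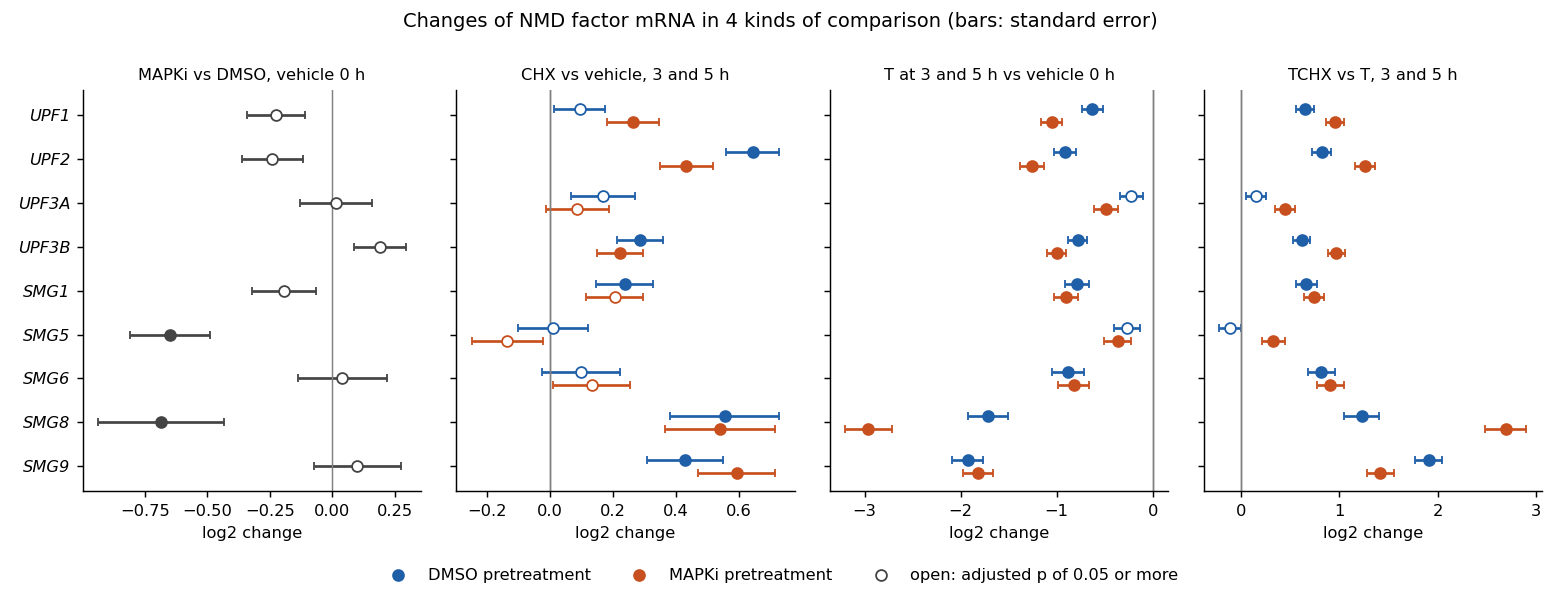
Log2 changes of the 9 mRNAs (x axis, each panel with its own range) with standard errors, for MAPKi against DMSO (grey), CHX against vehicle, T against vehicle at 0 h and TCHX against T, in DMSO (blue) and MAPKi (orange) cells. Filled points have an adjusted p under 0.05. SMG8 and SMG9 lie outermost in the triptolide panels, with SMG8 in MAPKi at -2.96 and 2.69.

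Translation-dependent decay was also put into an index (the TDD index), which gives the part of the starting RNA that CHX saved during triptolide, as TCHX minus T divided by vehicle at 0 h, here averaged over 3 and 5 h for each replicate. In DMSO it was 0.71, 0.63 and 0.80 for SMG9, above every other member in all replicates. It was 0.38, 0.42 and 0.35 for SMG8, and 0.41 ± 0.04 for UPF2, 0.41 ± 0.08 for SMG6, 0.37 ± 0.03 for UPF1, 0.34 ± 0.07 for SMG1 and 0.30 ± 0.03 for UPF3B (SD, n = 3). These lay above the median gene (0.12 ± 0.04), whereas UPF3A was at 0.10 ± 0.10 and SMG5 at -0.07 ± 0.01.

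In MAPKi the index of SMG8 was 0.59, 0.67 and 0.81, above each DMSO value, and that of SMG9 was 0.52, 0.36 and 0.55, below each DMSO value. UPF3B was at 0.48 ± 0.03, above each of its DMSO values too, and UPF2 at 0.60 ± 0.21. The median gene was at 0.19 ± 0.01 in MAPKi, which was also above each of its DMSO values. SMG5 was at 0.37, 0.27 and -0.05, the widest spread of the 9. The difference between MAPKi and DMSO was 0.31 ± 0.08 (SE) for SMG8 and -0.23 ± 0.08 for SMG9, with adjusted p of 0.176 and 0.224 (limma over 11422 genes). That model takes the values of a replicate at 3 and 5 h as separate observations. They share their initial level, so its SE and p-values may be too small. No member was called, and 0% of all genes were, while 5 of 9 members had an unadjusted p under 0.05, SMG8, SMG9, UPF3A, UPF3B and SMG5, as did 15% of all genes. In the exact two-sided permutation test on the 3 against 3 replicate values, UPF2, UPF3B, SMG5, SMG8 and SMG9 reached 0.1. The median gene reached 0.1 too. This is the smallest p that 3 against 3 allows, so that this test cannot pass 0.05. It was not run on each of the other genes, so the share of all genes that reach 0.1 is not known.

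**Figure D4:**
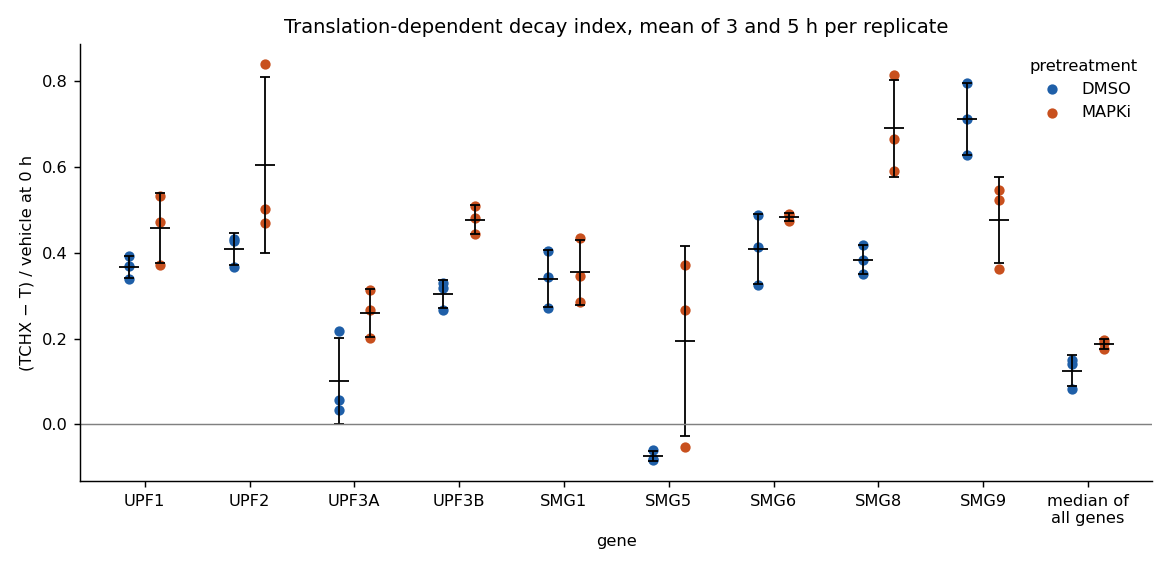
TDD index (y axis, part of the vehicle level at 0 h) of the 9 mRNAs and of the median gene (x axis) in DMSO (blue) and MAPKi (orange), with 1 point per replicate and black bars for mean and SD. SMG8 is higher (0.69 against 0.38) and SMG9 lower (0.48 against 0.71) in MAPKi, without overlap of the 3 replicates. The median gene is also higher in MAPKi (0.19 against 0.12), again without overlap.

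Other genes of the pathway gave a setting for these values. Of 7 tested exon junction complex genes, 0 were higher and 6 lower after MAPKi at 0 h, against 22.3% and 23.6% of all genes. MAGOH (-1.05 ± 0.13) and RBM8A (-1.03 ± 0.11), which belong to the core of that complex, fell most. With CHX at 3 and 5 h, 2 rose in DMSO and 4 in MAPKi, against 17.3% and 15.9% of all genes. PYM1, which takes the complex apart, led both (0.54 ± 0.17 and 0.62 ± 0.16), and it also led the fall after triptolide (-1.46 ± 0.22 and -2.29 ± 0.22) and the rise of TCHX over T (1.37 ± 0.18 and 2.19 ± 0.19). The 2 genes of the list with a larger TCHX difference in MAPKi were PYM1 (0.82 ± 0.26) and CASC3 (0.39 ± 0.10). Of all genes, 6.82% had one.

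Among 6 genes of translation termination and the mRNA cap, 5 were lower after MAPKi, against 23.6% of all genes. The release factors ETF1 (-1.03 ± 0.07) and GSPT1 (-0.77 ± 0.13) fell most. GSPT2, a paralog of GSPT1, moved in the same directions as SMG8. It rose with CHX in both pretreatments (0.90 ± 0.14 and 0.81 ± 0.14), fell after triptolide by -2.11 ± 0.20 in DMSO and -3.43 ± 0.22 in MAPKi, and was higher with TCHX than with T by 1.14 ± 0.17 and 2.95 ± 0.20. Both of its differences between pretreatments were called, at -1.32 ± 0.31 for the fall and 1.80 ± 0.27 for TCHX over T. PABPC1 fell with CHX in both (-0.25 ± 0.07 and -0.54 ± 0.07).

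Of 10 further cofactors, 1 was higher and 5 were lower after MAPKi, against 22.3% and 23.6% of all genes. RUVBL1 (-1.37 ± 0.11) and DHX34 (-1.16 ± 0.20) fell most. PNRC2, a decapping cofactor, led the list after triptolide (-1.84 ± 0.20 and -2.52 ± 0.22) and for TCHX over T (1.102 ± 0.17 and 1.82 ± 0.19), and 3 of 10 in DMSO and 8 of 10 in MAPKi were higher with TCHX, against the 28.4% and 41.4% of all genes.

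NMD-sensitive transcripts outside the machinery had larger medians than the factors with CHX alone but not throughout under triptolide. Of 16 tested, 13 rose in DMSO, against 17.3% of all genes, with a median log2 change of 1.59. ATF3 (5.27 ± 0.16) and GADD45B (3.76 ± 0.19) led. In MAPKi 12 rose and 1 fell, against 15.9% and 14% of all genes, with a median of 0.88. The corresponding medians of the 9 factors were 0.24 and 0.22. For TCHX over T the medians were 0.75 and 0.69 for these transcripts and 0.66 and 0.96 for the factors, and these differences between lists were not tested. ATF3 and GADD45B are also known as stress-induced genes, and both were already higher after MAPKi alone (3.49 ± 0.23 and 3.84 ± 0.28). Over the 16, however, 6 were higher and 6 lower after MAPKi, against 22.3% and 23.6% of all genes, with a median of -0.20. The CHX effect was smaller in MAPKi for 9 of the 16 and larger for 1. Over all genes 5.95% were called lower and 5.01% higher, and of the 9 factors 0 were called. EIF4A3 and ASNS, listed in these groups, were at 3 and 5 counts at most in any library and were not tested.

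Across the 32 group means of log2 CPM, the gene most like each member was found among 8540 other tested genes with a mean of at least 10 CPM. Pearson's r was 0.973 for SMG8 with YTHDF2, 0.954 for UPF2 with IWS1, 0.95 for SMG9 with PLEKHO2, 0.933 for UPF1 with ING5, 0.927 for SMG5 with ARIH2, 0.923 for SMG1 with PDRG1 and 0.921 for UPF3B with BPTF. It was 0.789 for SMG6 with MADD and 0.715 for UPF3A with SEC62, the 2 least tied to any other gene. Among the members themselves, UPF2 and SMG1 were most alike (r = 0.897), and SMG5 ran against SMG6 (-0.285) and UPF3B (-0.257). These values describe 32 groups that share controls, libraries and scaling, and no test was made of them.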

How the data were processed

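Cytoplasmic RNA of A375 cells was read in 96 QuantSeq libraries. The authors trimmed reads with fastp 0.20.1, aligned them to GRCh38.p13 with HISAT2 2.2.1 and counted exons with HTSeq 0.13.5, and the deposited table holds raw counts per gene. The strand setting and the annotation release are not given in the sources used here. No molecular identifiers are described, so amplified copies count as reads. Groups were taken from the labels, and 0 columns lay outside them.

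Entries were kept by filterByExpr (14948 of 44659), and all 32 groups were fitted together with edgeR 4.0.16 (quasi-likelihood, R 4.3.3, Benjamini-Hochberg over all kept genes, threshold 0.05). Comparisons of MAPKi and CHX used TMM. Comparisons with triptolide used DESeq2 1.42.0 size factors over 36 stable genes, with over 0.2 CPM at the start and a rise of 1.1-fold or more at 3 and 5 h of T. The TDD index was compared with limma 3.58.1 (11422 genes). Intervals are 95%. The edgeR fit and the TDD index model were tested on simulated counts scaled to library totals. Stable-gene scaling, TMM factors and DESeq2 were not part of that test. CPM and percent remaining are levels, and log2 values are differences.

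Named genes are the 9 members and, in each pathway list and comparison, the 2 called genes with the largest change. The members and lists were chosen with earlier results of these data known. An item withheld from this text is not reported here. The edgeR fits did not use replicate numbers as pairs. Deviations from the group means correlated by over 0.1 in 24.2% of 1488 same-numbered pairs and in 17.2% of 2976 others. The median r was 0.0227 and -0.0109. A fit with a replicate block was an alternative. Percent remaining and the TDD index divide by the library of the same number, and the limma model has time and replicate as terms, as in the study. No 2 libraries of a group differed by so little as to be 1 library. Alternatives were other scalings, no filter, a replicate block, DESeq2, only the libraries compared, the mean of 4 vehicle times, and each replicate left out.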

Additional observations from a re-analysis of the deposited data

Results flagged for a closer look

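Differences between pretreatments that passed their own test are listed here as values. The fall of SMG8 after triptolide was larger in MAPKi than in DMSO by -1.24 on the log2 scale (adjusted p = 0.0156, edgeR), and its rise from T to TCHX was larger by 1.46 (adjusted p = 0.000138, edgeR). In the MAPKi libraries with T at 5 h SMG8 had 11, 37 and 3 counts, so these differences rest on few reads. Both share the T libraries, and they are not independent of each other. The rise of UPF2 from T to TCHX was larger in MAPKi by 0.45 (adjusted p = 0.0376, edgeR), and 8 of 10 alternatives left it above the threshold.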

How the results depend on the processing

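Of 47 calls of a member in a comparison, DESeq2 and the replicate block each kept 47, the fit to only the libraries compared 43 and the fit with no filter 42. Leaving out replicates 1, 2 and 3 kept 40, 41 and 39. Of the 35 calls that rest on triptolide, TMM kept 27, total counts 30 and the stable genes at 3 or 5 h 33. Averaging 4 vehicle times raised the members called for MAPKi against DMSO from 2 to 6 (over all genes from 45.9% to 69.1%) and turned SMG9 to -0.20, and leaving out replicates gave 1 to 2. For CHX at 3 and 5 h leaving out replicates gave 2 to 4 members in DMSO and 3 in each case in MAPKi, against 5. For the difference in loss after triptolide, TMM and the fit to only the libraries compared gave 0 members and leaving out replicates 0 to 1, against 1. For the difference in TCHX over T, the stable genes at 3 or 5 h, no filter, only the libraries compared and each replicate left out gave 1, against 2. Under TMM, UPF3A turned to 0.14 and SMG5 to 0.26 after T in MAPKi, and SMG5 to -0.031 for TCHX over T in MAPKi. The cause of these changes was not tested. With the replicate block, 6 members were called for CHX at 3 and 5 h in MAPKi, against 5. By mean correlation of deviations, 64 of 96 libraries were nearest to their own number among the 3. Same-numbered libraries were thus somewhat more alike than others. The column names also share a prefix per number, whose meaning is not given. For the TDD index, where the replicate is a term, leaving it out called 0 members too. Low counts limit SMG8 most.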
